A study of Mus musculus with 3 samples.

Results

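The 83 genes described here encode the proteins of the cytosolic ribosome. They were chosen by symbol alone, as every gene named Rpl or Rps with a number and, where present, a closing letter or number, together with Rplp0, Rplp1, Rplp2 and Rpsa. This gave 83 of the 32285 gene rows, of which 51 encode proteins of the large (60S) subunit and 32 proteins of the small (40S) subunit. The rule used no measured value, although it was set with earlier results of these data known. All 83 had at least 1 UMI (unique molecular identifier, a count of 1 captured transcript). Their genes lay on 19 chromosomes of GRCm38, and all were annotated as protein coding.

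Each cytosolic ribosome carries 1 copy of nearly every one of these proteins, and the genes are transcribed at high levels in most cells. Their mRNAs belong to the TOP class, so called for the terminal oligopyrimidine tract with which the transcript begins. Through this tract the growth-sensing kinase mTOR and the RNA-binding protein LARP1 control their translation and stability. In T cells, leaving the resting state is known to change both ribosome production and the share of the transcriptome that other genes take up.

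The cells were CD45+ immune cells, sorted from sciatic nerves of female NOD.AireGW/+ mice with spontaneous autoimmune neuropathy. Aire drives self-antigen expression in the thymus, and the GW allele, present in 1 copy on the diabetes-prone NOD strain, removes part of its function. All 3 libraries belonged to this 1 group. A single mouse gave library 1, another gave library 2, and 2 pooled mice gave library 3. Since every library shared genotype and disease, cell classes were compared within libraries.

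The starts of the transcripts are shown first, since the tract is a feature that the choice of genes did not use. The RefSeq table of start sites (build GRCm38.p6) held 63 of the 83 genes and 27025 genes in all. A tract was counted where a C within 5 bases of the annotated start was followed by at least 4 pyrimidines (C or T), read on the strand of the gene, at the first annotated start only. It was found in 28 of the 63 genes (44.4%), against 18.5% of all genes in the table and 21.7% of the genes of the mitochondrial ribosome. With the C placed exactly on the annotated start it was found in 12 of 63 (19%), against 2.49% of all genes. Within 20 bases, a distance added after seeing the data, the shares were 76.2% and 49.6%. An annotated start is not always the one a cell uses, so no match says only that these letters are missing from the window.

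The windows below run from 10 bases before the annotated start to 15 bases into the first exon, which is 5′ untranslated sequence, with the tract in capitals where there was one. All 8 belong to genes described below. They show both kinds of window, the first 5 with a tract and the last 3 without one. Rps27, Rps27l and Rpl12 lie at chr3:90213634-90213658, chr9:66946076-66946100 and chr2:32961702-32961726. Rps24 and Rps15a lie at chr14:24490668-24490692 and chr7:118116133-118116157. Rps19, Rpl27 and Rpl10 lie at chr7:24884582-24884606, chr11:101442235-101442259 and chrX:74270806-74270830. Rps27 and Rps15a are read from the minus strand and the other six from the plus strand.
Rps27: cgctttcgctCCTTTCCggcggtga
Rps27l: cctccccgccgCCTCTatcccggaa
Rpl12: agcaggatccgtCTTTTCggctttc
Rps24: gctggggtcCTTCCTTgcgcgttga
Rps15a: tttctgccatCTTCCCTCgccggtg
Rps19: aatctcgcgagactcgacgcccgac
Rpl27: ctgttcctgtctgctgctcgtgctg
Rpl10: tacagtggaagataggccgcctata

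The libraries held 3926, 8311 and 1533 cells (libraries 1 to 3) with 22983991, 55120460 and 3399733 UMIs, so that library 3 was the least precise. The 83 genes took 21.3%, 21.1% and 28.9% of all UMIs. Cells were placed in classes by UMIs of marker genes, none of them ribosomal, which assigned 2468, 4942 and 643 cells to 1 class. T cells needed Cd3 genes, and Cd4, Cd8a or Cd8b1, Foxp3 and Trdc set their subsets. B cells were gated by Cd79a, Cd79b and Ms4a1, NK cells by Ncr1, Klre1 and Klra8, macrophages by C1q genes, monocytes by Lyz2 with Ly6c2, Chil3 or Plac8, and plasmacytoid dendritic cells (pDC) by Siglech. A class name stands for its gate. Markers outside the gates were in place for the main classes. Cd22 and Pax5 were highest in B cells, and, in libraries 1 and 2, Adgre1 in macrophages and Bst2, Ccr9 and Tcf4 in pDC. The cell barcodes that libraries shared numbered 7 to 36. In library 1 the 291 CD8 T cells with the fewest UMIs stood apart, with a ribosomal share of 10.0% and 6.58% mitochondrial UMIs, against 25.1% and 1.49% in the 290 cells next in UMI number. The 200 conventional CD4 T cells of library 1 with the fewest UMIs did so as well, with 12.2% and 3.99%, against 21.2% and 1.33% in the next 200. Results that rest on T cells were therefore also computed without cells of over 5% mitochondrial UMIs.

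Averaged over classes, lymphoid cells carried a larger ribosomal share of their UMIs than myeloid cells in every library. B cells were highest in each library, at 27.0%, 30.6% and 34.1%. NK cells followed closely at 26.5%, 29.9% and 32.6%, and gamma delta T cells had 25.6%, 26.1% and 33.0%. CD8 T cells had 24.8%, 27.7% and 30.5%, and conventional CD4 T cells had 21.8%, 26.6% and 28.7%. B cells exceeded conventional CD4 T cells by 4.87 percentage points ± 0.775 (SD, n = 3 libraries), and NK cells exceeded CD8 T cells by 2.00 ± 0.281, both in all 3 libraries. The order of NK and gamma delta T cells changed between libraries.

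Regulatory T cells (Treg), identified by Foxp3, were the lowest of the T cell classes. Their share was 18.2%, 22.2% and 21.7%, a difference of -4.98 points ± 1.81 (SD, n = 3) from conventional CD4 T cells. In each library at least 1 myeloid class exceeded them. Monocytes had 16.5%, 21.2% and 22.6%. Macrophages had 11.9% in library 1 (10 cells) and 16.6% in library 2 (1932 cells), and type 1 conventional dendritic cells (cDC1) 19.7% and 22.9%; library 3 held fewer than 10 cells of each. Lymphoid classes exceeded myeloid classes by 7.48 points ± 0.500 (SD, n = 3). The median number of UMIs per cell was 7312 in library 2 macrophages and 2545 in its conventional CD4 T cells. At 1000 UMIs per cell the lymphoid excess was 5.18 points.

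Secretory and mature cells lay at the lower end, each in 1 library of at least 10 cells. The 12 plasma cells of library 2 had a share of 11.3% (exact 95% binomial interval 11.2 to 11.4, for counting error only), against 30.6% in its B cells. Immunoglobulin transcripts made up 37.6% of the plasma cell UMIs, and without them and mitochondrial UMIs the shares were 18.3% and 31.7%. The 36 mature dendritic cells of library 2, which express Ccr7 and Fscn1, had 16.4%, against 22.9% in cDC1 and 20.9% in type 2 conventional dendritic cells (cDC2). These differences rest on 1 library and were not tested.

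**Figure D1:**
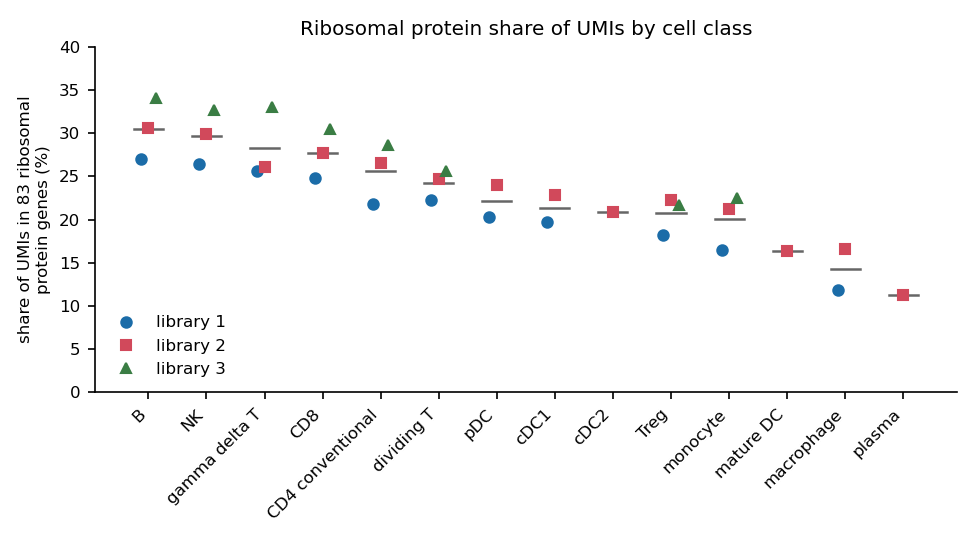
Share of all UMIs that fell in the 83 ribosomal protein genes (percent, vertical axis) by cell class (horizontal axis, ordered by mean). Symbols are libraries, bars are means over libraries, and sums of fewer than 10 cells are left out. B cells sit between 27.0% and 34.1% and macrophages at 11.9% and 16.6%.

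The share also moved with the number of UMIs per cell within a class. In conventional CD4 T cells of library 2, 3 equal groups of rising UMI number had shares of 23.0%, 26.0% and 27.7%. Library 3 gave 25.1%, 28.6% and 29.9%. In macrophages of library 2 the order was the opposite, with 18.6%, 17.2% and 15.7%. Comparisons were therefore repeated with cells thinned to 1000 UMIs. Cells with fewer UMIs (465, 264 and 280 in libraries 1 to 3) were left out. The gates were applied again to the thinned counts, so that the cells in a class or state changed along with the depth.

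To ask how the ribosomal genes differ between T cell states, resting and effector cells were gated in conventional CD4 and in CD8 T cells. Resting cells had at least 2 UMIs over a panel that included Ccr7, S1pr1, Lef1 and Klf2 and none of Ifng, Cxcr6, Gzmb, Gzmk, Il21, Il10, Havcr2 and Pdcd1, and effector cells the reverse. Genes outside the gates separated in the same way. CPM are counts per unit of library size, scaled so that all genes of a sum add up to 1e6. The sum of Il7r, Satb1 and Tcf7 was 942 to 1554 CPM in resting CD4 cells and 165 to 379 in effector CD4 cells, and the sum of Nkg7, Bhlhe40, Tox and Lag3 was 529 to 864 and 3566 to 4403.

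Effector T cells carried a smaller ribosomal share than resting T cells in all 3 libraries. In CD4 T cells, resting cells had 24.4%, 30.1% and 31.7% and effector cells 17.9%, 22.2% and 21.5%. The difference was -8.22 points ± 1.86 (SD, n = 3), a mean effector-to-resting ratio of 0.716. In CD8 T cells, resting cells had 34.3%, 36.3% and 40.2% and effector cells 22.0%, 25.6% and 27.1%. This difference was -12.0 points ± 1.21 (SD, n = 3), with a ratio of 0.674. The 3 effector values lay below the 3 resting values in both lineages. Treg had shares within 0.29 points of effector CD4 cells in each library.

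Depth moved little with the CD4 states. Median UMIs per cell were 2883, 2331 and 1746 in resting and 2476, 2381 and 1736 in effector CD4 cells. In CD8 cells they were 5076, 2772 and 2433 against 3094, 3393 and 2096. At 1000 UMIs per cell the differences were -9.53 and -11.6 points, and without cells of over 5% mitochondrial UMIs they were -8.29 and -11.5 points. The states rested on 74, 179 and 53 resting and 185, 243 and 28 effector CD4 cells. For CD8 cells the numbers were 40, 75 and 30, and 381, 439 and 113.

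Markers of other cell types were not low in every sum and not even between states. The sum of Apoe, Csf1r and Adgre1, markers of macrophages, was 0 to 1125 CPM in resting and 17.9 to 216 in effector CD4 cells, and 0 to 214 and 6.89 to 120 in CD8 cells. The sum of Tcf4, Bst2 and Ccr9, markers of pDC, was 204 to 1050 in resting and 156 to 215 in effector CD4 cells. The highest macrophage sum was in library 2, where resting CD4 cells had 1082 CPM of Il7r, Satb1 and Tcf7 together. The highest pDC sum was in library 1, where those 3 genes had 1554 CPM in resting CD4 cells. The sum of Ccr2, Vcan and F13a1, markers of monocytes, was 122.8, 37.2 and 9.71 CPM in resting and 358, 162 and 215 CPM in effector CD4 cells. In CD8 cells it was 88.8, 37.1 and 52.9 against 345, 148 and 118 CPM, so that it was higher in effector cells in every library of both lineages. Vcan was at 0 in both CD4 states and in resting CD8 cells. Pax5 was at 0 in all 4 states, as were Col1a1 and Dcn. The part of these transcripts in the result was not tested.

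Nearly all single genes were lower in effector cells too. Counts were summed per library and state and compared by the edgeR quasi-likelihood test. The library was a block, and p-values were adjusted after Benjamini and Hochberg over every gene in the fit. From here on CPM are scaled by TMM (the trimmed mean of M-values). Of 80 ribosomal genes tested in CD4 cells, 71 were lower in effector cells and none was higher, while 5.19% of all 5168 genes tested were called lower and 4.59% higher (9.77% in either direction). The median log2 difference was -0.62, against -0.01 over all genes. In CD8 cells 71 of 80 were lower and none was higher, against 5.8% and 6% of all genes (11.8% in either direction), with medians of -0.61 and 0.03. Genes with an unadjusted p under 0.05 numbered 76 in CD4 and 75 in CD8 cells, and DESeq2 called 71 and 73 lower and none higher. Both lineages called the same 68 genes, and 6 genes were called in neither. Without the library block, which sets the cells of the same mice against each other, 0 and 3 genes were called.

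The genes with and without a tract were set side by side. The median log2 difference was -0.61 for the 28 genes with a tract and -0.60 for the 32 tested genes without one in CD4 cells, and -0.60 and -0.62 in CD8 cells, as a description without a test.

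No ribosomal gene was called higher under 2 other scalings. With library totals in place of TMM, the median of all genes rose to 0.09 in CD4 and 0.15 in CD8 cells, and 69 ribosomal genes were lower and none higher in each. Scaled to the other genes alone, 71 and 71 were lower. Rpl3l, Rpl10l and Rpl39l, paralogs with restricted expression, had too few UMIs to be tested, with 174, 4 and 37 UMIs over all cells.

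The acidic stalk proteins, which recruit translation factors to the large subunit, fell in both lineages. Rplp0 was at 3816, 6211 and 6618 CPM in resting and 2061, 4126 and 3465 CPM in effector CD4 cells. Each library was lower in effector cells, with a log2 difference of -0.79 (SE 0.11, adjusted p = 6.2e-05). Rplp1 differed by -0.84 (SE 0.14) and Rplp2 by -0.47 (SE 0.11). The call for Rplp2 was lost without library 2 and without library 3, with an adjusted p of up to 0.107. In CD8 cells the 3 genes differed by -0.62, -0.79 and -0.60.

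Among the small subunit genes, Rps24 had the smallest adjusted p in CD4 cells. It was at 6666, 9570 and 9608 CPM in resting and 3729, 5322 and 5229 CPM in effector cells, a log2 difference of -0.85 (SE 0.09, adjusted p = 2.0e-06). All effector values lay below all resting values. Mutations of RPS24 and of RPS19, whose product works in maturation of the small subunit, are known causes of Diamond-Blackfan anaemia. Rps19 differed by -0.77 (SE 0.10) in CD4 cells. In CD8 cells it had the largest difference of all ribosomal genes, with 3937, 6372 and 6119 CPM in resting and 1779, 2834 and 2889 CPM in effector cells (log2 difference -1.13, SE 0.10, adjusted p = 1.0e-07).

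Rps20 and Rps28 were next in CD8 cells, at -1.10 and -1.09. Rps28 was at 6374, 8169 and 17482 CPM in resting and 2908, 4008 and 8074 CPM in effector CD8 cells. Library 3 lay far above the others in each state, so that the states overlapped between libraries although each library was lower in effector cells.

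Rpsa, which also serves as a laminin receptor, differed by -0.50 in CD4 and -0.77 in CD8 cells. Rps3, a protein of the mRNA entry channel, differed by -0.60 and -0.68, and Rps14, a protein of the small subunit platform, by -0.49 and -0.63, with its CD4 call lost without library 2 (adjusted p = 0.070). Rps4x, the X-linked form of Rps4, differed by -0.68 and -0.82, and Rps27a, translated as a fusion with ubiquitin, by -0.76 and -0.90. Rps6, whose product is phosphorylated by S6 kinase downstream of mTOR, differed by -0.56 in CD4 cells (adjusted p = 0.020) and was not called in CD8 cells (-0.37, adjusted p = 0.11). The Rps6 call in CD4 cells was lost without library 2 and without library 3 (adjusted p up to 0.114).

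In the large subunit, Rpl12, a protein at the base of the stalk, had the largest difference in CD4 cells of all 80 genes. It was at 1526, 1697 and 1111 CPM in resting and 920.2, 784 and 441 CPM in effector cells, with no overlap (log2 difference -1.002, SE 0.14, adjusted p = 6.4e-05). Rpl4, which lines the exit tunnel of the growing peptide, differed by -0.95 (SE 0.17) in CD4 and by -0.51 (SE 0.16) in CD8 cells, where its call was lost without library 2 and without library 3 (adjusted p up to 0.151). Rpl5 and Rpl11, which with 5S rRNA can bind Mdm2 and so stabilise p53, were among the less certain genes. Rpl5 differed by -0.61 in CD4 cells (adjusted p = 0.045, lost without any 1 library), while Rpl11 was not called in CD4 cells (-0.31, adjusted p = 0.057) and differed by -0.37 in CD8 cells (adjusted p = 0.019, lost without library 2 or 3).

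Rpl3, a protein of the peptidyl transferase region, differed by -0.51 and -0.52 in CD4 and CD8 cells, and Rpl10, a late-joining subunit needed for export and activation of the large subunit, by -0.52 and -0.70. Rpl13a, known for a second role in silencing interferon-induced mRNAs, differed by -0.77 and -0.40, and Rpl38, linked to selective translation in development, by -0.56 and -0.61. Of these, the CD4 calls of Rpl3 (without library 3) and Rpl10 (without library 2 or 3), and the CD8 call of Rpl13a (without any 1 library), were lost, with adjusted p values up to 0.101. Among the called genes that moved in every library, the smallest differences were those of Rpl37, Rpl9 and Rpl37a in CD4 cells, at -0.46, -0.43 and -0.41, and of Rpl24, Rpl11 and Rps15a in CD8 cells, at -0.40, -0.37 and -0.34. The calls of Rpl24 and Rps15a in CD8 cells were lost without library 3, as were those of Rpl9 and Rpl37a in CD4 cells, and that of Rpl9 also without library 2 (adjusted p = 0.0522 to 0.212, edgeR).

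In each lineage 9 genes were not called. Rpl27 was at 1873, 3069 and 3435 CPM in resting and 1590, 2925 and 2803 CPM in effector CD4 cells (log2 difference -0.20, SE 0.11, adjusted p = 0.34). In CD8 cells it was at 3073, 4356 and 3926 CPM in resting and 2799, 4315 and 4259 CPM in effector cells (-0.02, SE 0.11, adjusted p = 0.96). Rps27l, a paralog of Rps27 induced by p53, was the only ribosomal gene above 0 in both lineages, at 0.27 (SE 0.23) in CD4 and 0.55 (SE 0.24) in CD8 cells, without passing the test (adjusted p = 0.56 and 0.17). Rpl7a, Rpl23a and Rpl7l1 were also called in neither lineage.

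**Figure D2:**
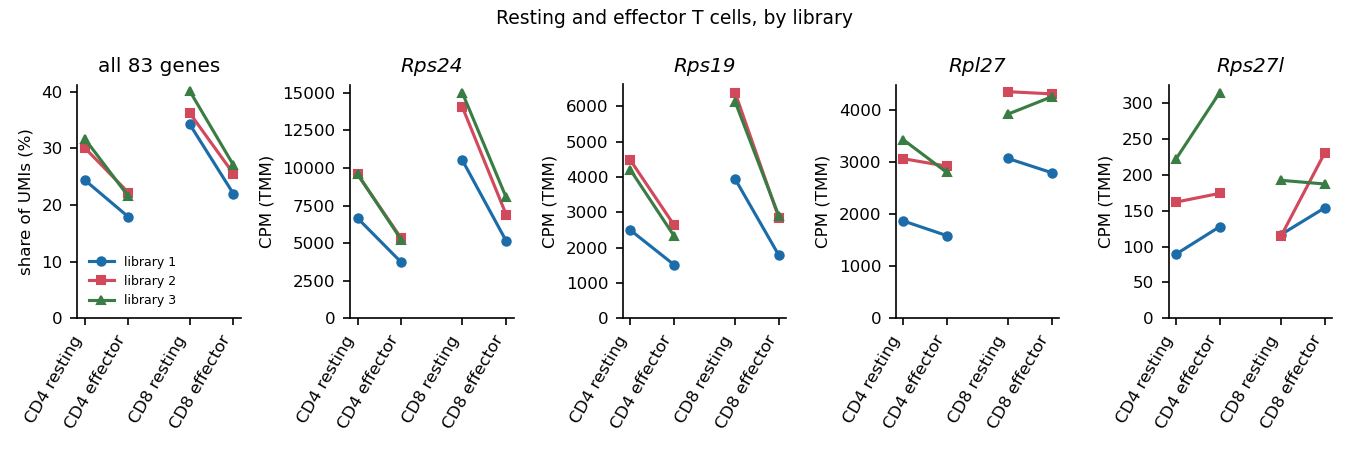
Resting and effector CD4 and CD8 T cells by library. The first panel gives the share of UMIs in the 83 genes (percent) and the others the CPM (TMM-scaled) of Rps24, Rps19, Rpl27 and Rps27l, with each line joining the 2 states of a library. The share, Rps24 and Rps19 go down in every library, Rpl27 changes little, and Rps27l goes up in all but library 3 of CD8 cells.

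The 2 lineages were then compared directly, by testing the difference between the CD4 and the CD8 change. None of the 80 genes passed the test in edgeR, against 0.348% of all genes (0.193% higher and 0.155% lower), and 3 had an unadjusted p under 0.05. The largest positive value was 0.38, for Rps20 (SE 0.16, adjusted p = 0.57). The largest negative value was -0.45, for Rpl4 (SE 0.24, adjusted p = 0.75). Rps19 differed by 0.36 (SE 0.14, adjusted p = 0.51). DESeq2 called 1 gene, Rps19, with 0.43 (SE 0.10, adjusted p = 0.0071), the CD8 change being the larger. A p that misses the threshold does not show that the lineages were alike, and the median SE of these differences was 0.15.

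**Figure D3:**
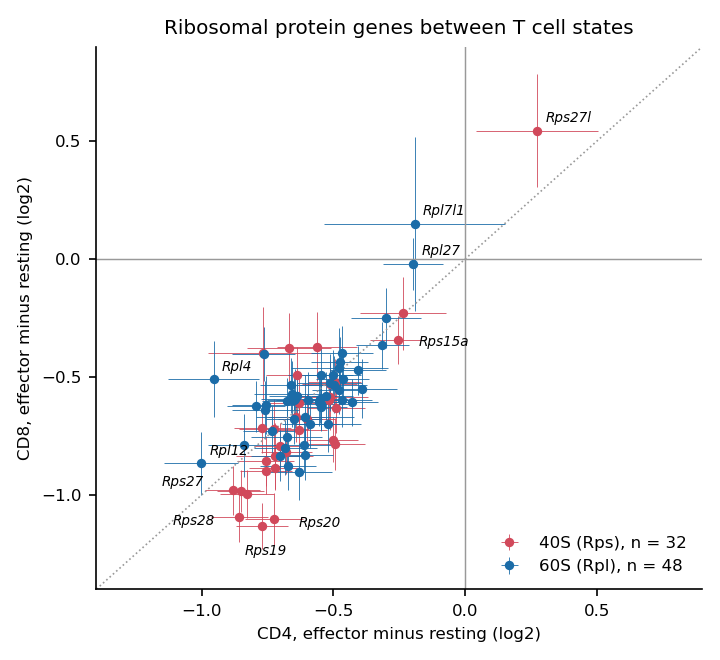
Log2 difference between effector and resting cells in CD4 (horizontal axis) and CD8 T cells (vertical axis) for the 80 ribosomal genes tested, with bars of 1 SE. Red points are genes of the small subunit and blue points genes of the large subunit. Nearly all lie below 0 on both axes, Rps27l alone lies above 0 on both, and Rpl27 and Rpl7l1 lie near 0.

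To separate the genes that moved from the rest of the ribosome, the same fits were made with the summed ribosomal UMIs as library size, so that a call means a changed share among ribosomal transcripts. In CD4 cells 7 genes were higher and 5 lower in effector cells, against 29.2% and 1.49% of all genes tested (30.7% in either direction). The 3 largest rises were those of Rps27l (0.87, adjusted p = 0.013), Rpl27 (0.42, adjusted p = 0.0022) and Rps15a (0.36, adjusted p = 0.00066). The 3 largest falls were those of Rpl12 (-0.41, adjusted p = 0.011), Rps27 (-0.27, adjusted p = 0.019) and Rps28 (-0.24, adjusted p = 0.020). The CD4 count of 12 fell to 1 without library 2 and to 6 without library 3.

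In CD8 cells 13 genes were higher and 9 lower on the same scale, against 43.1% and 1.84% of all genes (44.9% in either direction). Rps27l rose by 1.22 (adjusted p = 0.00096), Rpl7l1 by 0.86 (adjusted p = 0.048) and Rpl27 by 0.66 (adjusted p = 1.8e-05). The Rpl7l1 value rests on few counts, as resting CD8 cells held 13, 5 and 1 of its UMIs in libraries 1 to 3. Rps19, Rps20 and Rps28 fell by 0.46, 0.42 and 0.42. On this scale too the edgeR test found none of the 80 genes to differ between the CD4 and CD8 changes, against 0.213% of all genes (0.058% higher). Of the 9 genes that fell in CD8 cells, 8 belong to the small subunit, against 4 of the 5 that fell in CD4 cells. Small subunit genes made up 32 of the 80 tested, 4 of the 13 that rose in CD8 cells and 2 of the 7 that rose in CD4 cells. The CD4 falls were all lost without library 2, where 1 gene was higher and 0 lower. Without library 2 the count of 22 fell to 9, and without the library block 2 genes were called in CD8 and 0 in CD4 cells.

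Genes of the translation machinery outside the ribosomal proteins were lower in part. Over all genes, 5.19% were called lower in effector CD4 and 5.8% in effector CD8 cells. Of 19 translation factors and TOP transcripts, 7 were lower and none higher in effector CD4 cells, and 6 were lower in CD8 cells. They included Rack1, a scaffold on the small subunit, at 1220, 1068 and 666.8 CPM in resting and 894.9, 624.7 and 252 CPM in effector CD4 cells (-0.74, SE 0.15). Gas5, a non-coding TOP transcript that hosts small nucleolar RNAs, differed by -0.72 and -0.75, and Eef1b2, an elongation factor subunit, by -0.69 and -0.67. Of 12 tested genes of ribosome biogenesis, 2 were lower in each lineage, Npm1 and Ncl in CD4 cells (-0.81 and -0.53) and Fbl and Npm1 in CD8 cells (-1.0 and -0.72). These 3 encode abundant nucleolar proteins.

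The genes of the mitochondrial ribosome, a separate machine, had medians near 0. Of 65 tested, 2 were higher and none lower in each lineage (edgeR, 4 and 9 with an unadjusted p under 0.05), with medians of 0.05 and 0.08. Over all genes, 4.59% were called higher in effector CD4 and 6% in effector CD8 cells. The mitochondrial genes called were Mrps11 and Mrps6 in CD4 cells (1.40 and 0.74) and Mrps36 and Mrpl4 in CD8 cells (0.89 and 0.67). Of 4 tested regulators, Eif4ebp2, an inhibitor of cap-dependent translation, was lower in CD4 cells (-0.76, adjusted p = 0.047), and none was called in CD8 cells (edgeR, 0 with an unadjusted p under 0.05).

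The lineages were compared next, as the mean of 6 lymphoid classes against the mean of macrophages, monocytes and cDC1. Of 81 ribosomal genes tested, 45 were higher and 5 lower in lymphoid cells, while 26.7% of all 9807 genes were called higher and 24% lower (50.7% in either direction). The median was 0.25, against 0.11 for all genes. With library totals in place of TMM these medians were 0.50 and 0.42, and 68 ribosomal genes were higher and 2 lower. Without the 5% of cells of most UMIs, 22 were higher and 14 lower. The count of 50 fell to 24 without library 1, to 29 without library 3, to 18 without the library block and to 6 at 1000 UMIs per cell.

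The genes that differed did so unequally. Rpl12 was highest in lymphoid cells relative to myeloid cells, at 1341, 1180 and 847 CPM against 459, 665 and 402 CPM (1.03, SE 0.12, adjusted p = 4.3e-09). These library means of the groups did not overlap, and within each library every lymphoid class lay above every myeloid class. Between libraries single classes did overlap. Treg of library 3 had 536.5 CPM, against 897.5 in cDC1 of library 2. Macrophages of library 1 had 187 CPM. Rps15a (0.78), Rps27 (0.72), Rpl13a (0.70) and Rpsa (0.65) followed, each higher in 3 of 3 libraries. At 1000 UMIs per cell the calls of Rps15a and Rps27 were lost (adjusted p = 0.081 and 0.088, edgeR). That of Rpl13a was lost without the library block (adjusted p = 0.117, edgeR). The library values for myeloid cells are means over the classes present, which in library 3 were monocytes only.

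In the other direction, Rps27l was at 134, 186 and 164 CPM in lymphoid and 202, 395 and 323 CPM in myeloid cells (-0.94, SE 0.11, adjusted p = 7.2e-09). Rpl10 (-0.42) and Rps25 (-0.29) were also lower in lymphoid cells in 3 of 3 libraries, and both calls were lost without library 2 (adjusted p = 0.069 and 0.74). Rps29 (-0.26) was lower too, in 2 of 3 libraries, and its call was lost without library 2 and without library 3. Relative to the ribosomal total, 19 genes were higher and 16 lower, against 20.1% and 29.1% of all genes (49.1% in either direction). Rpl12 (0.82), Rps15a (0.54) and Rpl13a (0.46) led the first group, and Rps27l (-1.13), Rpl10 (-0.68) and Rps29 (-0.52) the second.

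Among genes outside the ribosome, 8 of 19 translation genes were higher in lymphoid cells and none lower, led by the elongation factor Eef2 (0.83) and the initiation factor subunits Eif3f (0.47) and Eif3e (0.45). Of 21 biogenesis genes, 8 were higher and 4 lower, the largest differences being those of Rrp1b (1.15), Dkc1 (0.98) and Nob1 (0.64). Of 76 genes of the mitochondrial ribosome, 3 were higher and 28 lower. Over all genes tested in this comparison, 26.7% were called higher and 24% lower. Mrpl14 (-1.26) and Mrpl27 (-0.98) were lower and Mrps6 (1.03) higher. Of 9 regulators, 3 were higher and 3 lower. Eif4ebp1, the translation inhibitor that mTOR inactivates, was at 15.2, 17.7 and 7.31 CPM in lymphoid and 59.2, 89.2 and 114 CPM in myeloid cells (-2.27, SE 0.18). Myc, a transcription factor that drives ribosome production, was at 33.4, 42.8 and 32.3 against 5.70, 15.4 and 8.74 CPM (1.43, SE 0.21), and Eif4ebp2 differed by 0.80. The other two that were lower were the kinase gene Mtor (-0.67) and Larp1 (-0.62), named after their values were seen.

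Dividing T cells, gated by Mki67 and Top2a, had a lower ribosomal share than non-dividing T cells in each library, by amounts that differed between libraries. The shares were 22.3%, 24.7% and 25.6% in dividing and 22.5%, 26.0% and 29.4% in non-dividing cells, a mean difference of -1.76 points ± 1.85 (SD, n = 3), no larger than the spread between libraries. Without library 3 it was -0.735 points. Dividing cells held more UMIs, with medians of 8413, 12340 and 4397 against 3571, 2644 and 1772, and at 1000 UMIs per cell the difference was -8.75 points. Of 80 genes, 4 were higher and 12 lower in dividing cells, against 10.1% and 11.9% of all 10216 genes tested (21.9% in either direction). The ribosomal genes were thus called no more often than genes at large, and with library totals in place of TMM 7 were higher and 12 lower. The median was -0.12 for the ribosomal genes and for all genes. The counts rested on single libraries: 1 was higher and 1 lower without library 1, 0 and 1 without library 2, and 11 and 2 without library 3.

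The calls changed with the libraries used. Without library 1 the count of 16 was 2, without library 2 it was 1, and without library 3, which held 19 dividing cells, it was 13, of which 11 were higher. Without the library block, and at 1000 UMIs per cell, no gene was called, and DESeq2 called 4.

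Rps27 and its paralog moved in opposite directions in dividing cells. Rps27 was at 2671, 2688 and 4233 CPM in dividing and 3871, 5134 and 9640 CPM in non-dividing cells (-0.88, SE 0.12, adjusted p = 1.8e-11), and its call held without each library in turn. Rps27l was at 209, 388 and 345 CPM against 145, 204 and 197 CPM (0.75, SE 0.15, adjusted p = 9.3e-06), a call lost without library 2 (adjusted p = 0.091). Rps24 (-0.53) and Rps21 (-0.45) were the next lower genes, and Rpl28 (0.35) and Rps6 (0.35) were also higher. The calls of Rps24, Rps21, Rpl28 and Rps6 were each lost without library 1 and without library 2. That of Rps21 was also lost without library 3 (adjusted p = 0.103 to 0.248 over the libraries left out, edgeR).

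Relative to the ribosomal total, 14 genes were higher and 5 lower in dividing cells, against 11.8% and 8.39% of all genes (20.2% in either direction). This count of 19 was 8 without library 1 and 3 without library 2. Rps27l (0.87) and Rpl28 (0.50) were among the highest, and Rps27 (-0.73), Rps24 (-0.37) and Rps21 (-0.30) lowest. On the scale of all UMIs with TMM, 10.1% of all genes were called higher and 11.9% lower in dividing cells. Outside the ribosome and on that scale, 21 of 78 mitochondrial ribosomal genes were higher and none lower, among them Mrpl18 (0.89), Mrpl51 (0.76) and Mrpl17 (0.70). Of 22 biogenesis genes 9 were higher and none lower, including Wdr12, Dkc1 and Nhp2 (0.71, 0.71 and 0.68). Of 19 translation genes, Hnrnpa1 was higher (0.60) and 3 were lower, among them Fau and Gas5 (-0.43 and -0.38). None of 9 regulators was called in edgeR, and 1 had an unadjusted p under 0.05.

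The composition of the ribosomal transcripts varied little between classes for most genes. Each gene's percentage of the ribosomal UMIs of a class was set against the mean of the classes of the same library on the log2 scale. Over 11 classes and the 79 genes of more than 10000 UMIs, the SD of this value had a median of 0.15. Rpl6 varied least, with 0.05, and Rps27l most, with 0.69. Rpl31 (0.58), Rpl12 (0.44), Rpl10 (0.36) and Rps27 (0.34) followed. These values are descriptions, chosen for their spread after it was seen.

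Rpl31, whose product lies at the exit of the peptide tunnel, stood out in pDC. It made up 1.02% and 1.11% of the ribosomal UMIs of pDC in libraries 1 and 2. The other classes lay between 0.25% and 0.37% in library 1 and between 0.22% and 0.32% in library 2. In CPM, pDC had 1785 and 2600, and the next highest class, cDC1 in library 1 and gamma delta T cells in library 2, had 744 and 776. The pDC sums rested on 27 and 50 cells, and library 3 held 7. Rpl31 lies at chr1:39367842-39371911 (GRCm38, plus strand).

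B cells had the highest share of Rps27 and the lowest of Rps27l. Rps27 made up 2.55%, 2.60% and 3.86% of ribosomal UMIs in B cells, and 1.74%, 1.60% and 2.22% in Treg. Rps19 and Rps20 were also above the mean of the classes in B cells, by 0.50 and 0.48 on the log2 scale. In Treg, Rps27l, Rpsa and Rpl39 were above the mean by 0.43, 0.37 and 0.36. In macrophages and monocytes Rpl10 was above it by 0.56 and 0.49, and Rpl12 was at -0.96 and -0.75.

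**Figure D4:**
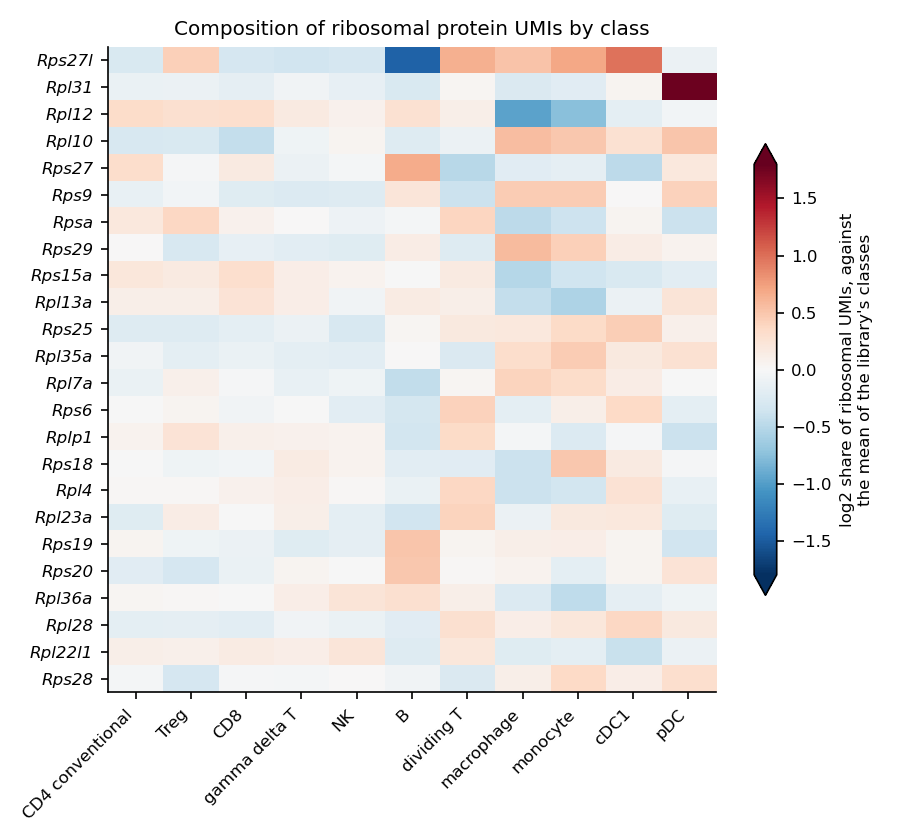
Share of each gene among the ribosomal UMIs, as log2 difference from the mean of the classes of the same library, averaged over libraries, for 24 genes of large spread (rows) in 11 classes (columns). Red is above and blue below the mean. Rps27l ranges from -1.46 in B cells to 0.98 in cDC1, and Rpl31 reaches 1.76 in pDC.

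The pairs of a main form and its paralog were read as the paralog's percentage of the pair's UMIs, which does not depend on the other genes. It is compared here between classes and not as a ratio of levels. For Rps27 and Rps27l it was 1.06% ± 0.389 (SD, n = 3) in B cells, 2.89% ± 0.592 in conventional CD4 T cells and 3.22% ± 0.997 in CD8 T cells. In Treg it was 5.73% ± 0.812, in monocytes 7.53% ± 1.56 and in dividing T cells 9.13% ± 3.01. The B cell values did not overlap with those of any of these classes. In cDC1 it was 12.3% and 13.4% in the 2 libraries. The highest values came from library 2 alone, at 20.1% in plasma cells (exact 95% interval 16.5 to 24.1) and 25.8% in mature dendritic cells (23.2 to 28.5), against 11.2% in cDC2.

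The T cell states differed in the same pair. Rps27l made up 1.94% ± 0.214 of the pair in resting and 4.60% ± 0.95 in effector CD4 cells (SD, n = 3), and 1.39% ± 0.265 and 3.84% ± 1.44 in CD8 cells, with no overlap in either lineage.

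For Rpl22, whose product is known to repress its paralog, and Rpl22l1 the percentage was lower in B cells than in CD8 T cells and NK cells in every library. In B cells it was 22.4%, 26.6% and 32.7%, in CD8 T cells 30.1%, 34.9% and 43.1%, and in NK cells 28.6%, 36.1% and 46.1%. Between states it was 31.8% ± 3.20 in resting and 36.7% ± 7.98 in effector CD4 cells, and 36.4% ± 7.74 and 36.8% ± 7.03 in CD8 cells (SD, n = 3), and in neither lineage did all 3 libraries move the same way. As a single gene, Rpl22l1 was higher in lymphoid than in myeloid cells (0.55, SE 0.10, adjusted p = 2.5e-05), while Rpl22 was not called (0.15, SE 0.10, adjusted p = 0.21). For Rpl7 and Rpl7l1 the percentage was 1.81 to 4.52 as a mean of the classes with 2 or 3 libraries, and 1.71 to 7.14 in the 3 classes of library 2 alone, where plasma cells were highest (exact 95% interval 3.74 to 12.1). Rpl7 itself differed by -0.50 in CD4 and -0.53 in CD8 effector cells, the first call being lost without any 1 library.

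**Figure D5:**
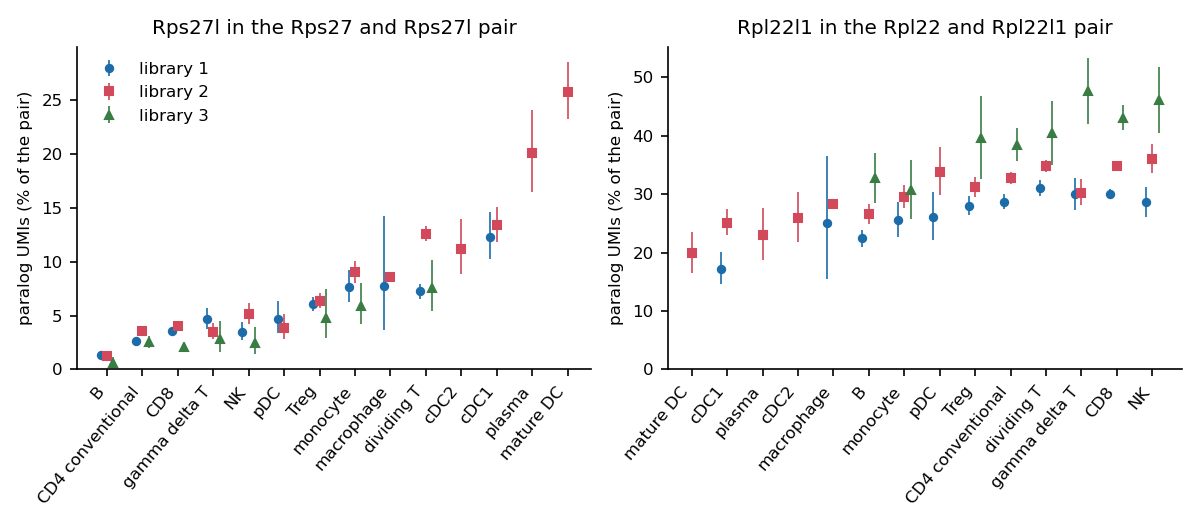
Paralog UMIs as a percentage of the pair, for Rps27l with Rps27 (left) and Rpl22l1 with Rpl22 (right), by class and library. Bars are exact 95% binomial intervals, which cover counting error only. Rps27l is lowest in B cells, at 0.612% to 1.31%, and highest in the mature dendritic cells of library 2.

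The libraries themselves differed in which ribosomal genes were counted. Of 80 genes with at least 1000 UMIs, 27 differed by over 1.5 times and 11 by over 2 times between the highest and the lowest library in their percentage of ribosomal UMIs. Rpl13a and Rpl5 were the extremes, 4.26 and 4.04 times higher in the highest than in the lowest library. Library 3 against library 1 gave log2 differences of -2.09 for Rpl13a, -2.02 for Rpl5, 0.96 for Rpl37a and 0.91 for Rps28. In 8 classes with sums in both libraries, 21 of the 83 genes were higher in library 3 in every class and 34 lower in every class, and the others had no single direction over all 8 classes. Library 1 was processed with another version of the counting software than libraries 2 and 3, and its gene rows were matched by order, and these cannot be told apart from differences between the mice. All comparisons above set classes of the same library against each other.

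Some counts are uncertain because near-identical copies have rows of their own. Rps27rt had 4475 UMIs against 290551 for Rps27, Rpl10-ps3 had 843 against 160700 for Rpl10, and Rpl9-ps6 had 578 against 253346 for Rpl9. Rpl36al, which encodes nearly the same protein as Rpl36a, had 73105 against 93525.

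Genes outside the list that moved most closely with the ribosomal share were named by correlation. Over 33 sums of class and library, with library means removed, and 2655 genes of at least 50 CPM, the highest Pearson correlations with the log2 share were those of the initiation factor subunit Eif3f (0.849) and the elongation factor Eef1a1 (0.848). Gm10260, Vps37b, Sipa1, Bcas2, Eef2, Naca, Eif3h and Mbnl1 followed, from 0.810 to 0.788. Thus 5 of the first 10 were on the list of translation genes, which held 19 genes, against 2655 genes ranked. The sums share libraries, mice and a denominator, and no test was made.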

How the data were processed

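Single-cell RNA sequencing of CD45+ sciatic nerve cells of neuropathic NOD.AireGW/+ mice was used, in 3 libraries of 1 group. Per the study's methods and the labels, the authors mapped 5′ reads to mm10 with Cell Ranger (version 5.0.1 for library 1 and 6.1.2 for libraries 2 and 3, per the file headers). The authors deposited UMI counts for each gene in each cell, without normalization. Cell Ranger does not count reads that map to several genes. Library 1 was read with the gene order of libraries 2 and 3, with a Spearman correlation of row totals of 0.950 and 0.929, against 0.362 and 0.321 after a shift by 1 row.

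Cells were kept at 300 UMIs or more, up to 5000 genes and up to 20% mitochondrial UMIs, which left 3848, 8256 and 1533 cells. Classes were gated on marker UMIs. Cells that met several gates (91, 229 and 5) were left out, and no doublet caller was run. Counts were summed per class and library, dropping any sum under 10 cells, and tested with edgeR 4.0.16 (R 4.3.3) by quasi-likelihood, after TMM and filterByExpr, with a block for the library and p-values adjusted by Benjamini-Hochberg. A call needed an adjusted p under 0.05. The scripts were tested on simulated data. Sums of 1 library come from the same mice, and their deviations from the group means correlated across genes with r of 0.245 to 0.683 in each library. The replicates are separate mice or pools. With the library as a block, p-values measure how far the differences between sums varied over these 3 libraries. The T cell states were fitted together, and so were all gated classes. Sums from the same mice therefore share an estimate of that spread, and small p-values do not stand for more than 3 libraries.

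The genes and lists were chosen with earlier results of these data known. Named genes were those of set roles, the paralogs with their main forms, the 3 largest and 3 smallest differences of each comparison (called, same direction in every library, at least 50 CPM), up to 3 in each direction relative to the ribosomal total, up to 3 per other list, and 10 correlates of the share. Alternatives were other scalings, DESeq2 1.42.0, no filter, no block, 1000 UMIs per cell, no cells of most UMIs, other gates and leaving out each library, with a mitochondrial limit of 5% added after seeing the data. Mature dendritic cells reached 10 cells in 1 library, so their planned test was replaced by values. Some genes are not reported here by name. Positions came from GENCODE vM21 and start windows from RefSeq. The paired receptor sequencing was not used here.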

Additional observations from a re-analysis of the deposited data

How the results depend on the processing

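Among 15 summary results, 61 of 80 values under other settings kept within the limits set (1.5 times for a count of genes, 1 SD between libraries for a share). These counts ignore direction. Dividing cells had 4 genes higher and 12 lower, but 11 higher and 2 lower without library 3, where the median log2 difference went from -0.12 to 0.01. Relative to the ribosomal total, thinning to 1000 UMIs changed CD4 effector cells from 7 higher and 5 lower to 4 and 7. The effector counts of 71 and 71 genes kept to 65 to 75 and 55 to 74 under each other setting that used the library block, and to 52 to 69 and 65 to 68 without each library. Without the replicate block the counts were 0 in CD4, 3 in CD8, 18 between lymphoid and myeloid and 0 between dividing and non-dividing cells, and relative to the ribosomal total 0, 2, 19 and 0. The difference between CD4 and CD8 had 0 calls with edgeR, also without each library, and 1 with DESeq2.

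Lymphoid against myeloid gave 6 at 1000 UMIs per cell (20 relative to the ribosomal total) and 24 to 54 without each library (24 to 32). Dividing against non-dividing cells gave 4 with DESeq2, 8 without the 5% of cells of most UMIs, 0 at 1000 UMIs (0 also relative) and 1 to 13 without each library. At 1000 UMIs that gate kept 42, 30 and 6 dividing cells, and the share difference was -8.75 points. The relative counts without each library were 1 to 8 in CD4, 9 to 18 in CD8, 0 to 0 between the lineages and 3 to 19 in dividing cells. The lymphoid excess in share was 5.18 points at 1000 UMIs, 6.75 without the cells of most UMIs and 6.47 as a median over cells. Without each library the share differences were -9.07 to -7.23 (CD4), -12.7 to -11.5 (CD8), -2.54 to -0.735 (dividing), 7.25 to 7.75 (lymphoid) and -5.67 to -3.96 (Treg). The causes were not tested.

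Of 1166 values of 100 gene calls under other settings, 911 stayed called in the same direction, 250 lost the call and 5 reversed. The latter were Rpl37a (-0.11) and Rpl7 (-0.022) between lymphoid and myeloid cells and Rpl28 (-0.93) and Rps6 (-1.10) in dividing cells, all at 1000 UMIs, and Rps29 between lymphoid and myeloid cells without the block (0.012). The plasma, cDC2 and mature dendritic values rest on 12, 26 and 36 cells of library 2.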
